A study of Homo sapiens with 15 samples.

Results

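The genes described here encode the nuclear subunits of the 5 oxidative phosphorylation complexes, measured by RNA-seq in the multiple myeloma (MM) lines MM.1S and RPMI8226. They were chosen by symbol: the NDUFA, NDUFB, NDUFC, NDUFS and NDUFV genes, SDHA to SDHD, the UQCR genes, CYC1, the COX4 to COX8 genes and the ATP5 genes. This choice matched 85 of the 20468 RefSeq genes in each table, and 1 pseudogene, ATP5EP2, was left out. The 84 members were 36 genes of complex I, 4 of complex II, 9 of complex III, 17 of complex IV and 16 of complex V. The remaining 2, ATP5S and ATP5SL, carry the ATP synthase name and are not structural subunits. Symbols are those of the tables, several of which have been renamed since: ATP5G1, ATP5G2 and ATP5G3 are now ATP5MC1, ATP5MC2 and ATP5MC3, ATP5A1 is ATP5F1A, ATP5B is ATP5F1B, ATP5D is ATP5F1D, ATP5E is ATP5F1E and ATP5F1 is ATP5PB.

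Complex I takes electrons from NADH and complex II takes them from succinate, and both pass them through ubiquinone to complex III and then, on cytochrome c, to complex IV, which reduces oxygen. The proton gradient built by complexes I, III and IV drives ATP synthesis by complex V, whose rotor is a ring of c subunits. Complex II is wholly nuclear-encoded, while the other complexes join nuclear subunits to subunits encoded in mitochondrial DNA and made on mitochondrial ribosomes.

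The study asked how bone marrow stromal cells alter gene expression in myeloma cells. Each line was grown for 48 h alone (MONO), in the upper chamber of a transwell above stromal cells, so that only the medium was shared (TSW), or in the lower chamber in contact with them (CO). The stromal cells were HS5, an immortalized human marrow stromal line. Myeloma cells were seeded on the stromal layer as well as in the transwell above it, so TSW cells shared medium with both cell types. No label says whether TSW and CO libraries came from the same wells. The authors used trypsin for the coculture conditions and do not say whether TSW cells were included. CD90-negative, CD38-positive cells were sorted before RNA isolation and preparation of poly(A)-selected libraries.

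MM.1S had 3 libraries per condition and RPMI8226 had 2, which made 15 libraries in all. Reads on genes recovered from the MM.1S values numbered 9008977, 19050772 and 13265498 in MONO, 14260729, 15206212 and 13126692 in TSW, and 16101366, 15342283 and 13825779 in CO. In RPMI8226 they numbered 12479855 and 14806319 in MONO, 18538305 and 17929481 in TSW, and 16316717 and 18790792 in CO. At these depths 1 read on a 2 kb transcript gave an RPKM between 0.0262 and 0.0555. No label says whether replicates were separate cultures, so the p-values below measure only the spread between libraries. The tables of the lines were normalized separately, and each comparison was therefore tested within a line. TSW and CO were each compared with the same MONO libraries, so the values of these comparisons share their controls.

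Some libraries stood apart before any test. The ribosomal protein pseudogene RPS14P3 reached an RPKM of 84.2 in MM.1S MONO replicate 2 and 94.8 and 93.6 in the RPMI8226 TSW libraries, against 2.2 to 6.4 elsewhere. The mitochondrial tRNA gene trnN was at 1.44 in MM.1S MONO replicate 2 and at 2.22 and 1.53 in RPMI8226 TSW. It was at 82.3 and 120 in RPMI8226 MONO, 228 and 221 in RPMI8226 CO, and between 362 and 587 in the other MM.1S libraries. These genes were picked after the values were seen. In RPMI8226 this difference coincided with TSW in both libraries, so the comparisons of TSW cannot be told apart from it, and the contact culture is described first. In MM.1S, MONO replicate 1 had the highest summed level of the members (15350) and CO replicate 1 the lowest (9990).

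Most members were abundant. Mean RPKM was highest for NDUFA1 in complex I (393 in MM.1S, 589 in RPMI8226), SDHB in complex II (96.8 and 132), COX7C in complex IV (758 and 657) and ATP5B in complex V (689 and 675). In complex III it was highest for CYC1 in MM.1S (200) and for UQCRH in RPMI8226 (216). Among the tissue-restricted isoforms of complex IV, COX4I2 and COX6A2 had no read in any library, COX8C had reads only in RPMI8226 CO replicate 2 (RPKM 0.2), and COX7A1 stayed below 1, whereas their counterparts COX4I1, COX6A1, COX8A and COX7A2 were read in every library. COX6B2, the testis form of COX6B1, was at 0 and 0.041 in RPMI8226 MONO, 1.33 and 1.21 in TSW and 1.14 and 1.28 in CO, below the mean RPKM of 1 needed for a test. COX7B2, an isoform usually found in testis, was read in every RPMI8226 library, at 10.5 or less, and in MM.1S only in CO replicate 1 (RPKM 0.061).

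Testing was limited to genes whose mean RPKM reached 1, which left 77 members of 10153 genes in MM.1S and 79 of 10319 in RPMI8226. A gene was called when limma gave a Benjamini-Hochberg adjusted p under 0.05 and the fold exceeded 1.5. In RPMI8226, 29 of the 79 members (36.7%) were called lower in CO than in MONO, against 22.9% of all genes called lower. In either direction, limma called 10.6% of all genes in MM.1S for TSW against MONO, 11.8% for CO against MONO and 0.414% for CO against TSW, and adjusted p alone gave 27.3%, 31.3% and 0.433%. The matching shares in RPMI8226 were 32.5%, 39.3% and 4.29%, and adjusted p alone gave 67.1%, 71.9% and 27.6%. By adjusted p alone 41.7% of all genes were lower in RPMI8226 CO than in MONO and 17.5% were lower in CO than in TSW. For the difference between the lines, described further on, 26.8% of all genes were called for TSW vs MONO and 31.9% for CO vs MONO.

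In RPMI8226 the comparison of CO with MONO asked how transcripts of the respiratory chain differed between cells grown with stromal cells and cells grown alone. The summed RPKM of the members was 13040 and 13320 in MONO, 12780 and 13620 in TSW, and 9703 and 10310 in CO, so that both CO libraries lay below all others. CO stood at 75.9% of MONO for all members, 82.9% for complex I, 69.8% for complex II, 74.9% for complex III, 79.2% for complex IV and 65.8% for complex V. The median log2 fold change of the members was -0.34 against -0.09 for all genes, with 66 members negative and 13 positive. Both CO libraries lay below both MONO libraries for 59 of 79 members (74.7%, against 49.5% of all genes) and above both for 8 (10.1%, against 37.5%).

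**Figure D1:**
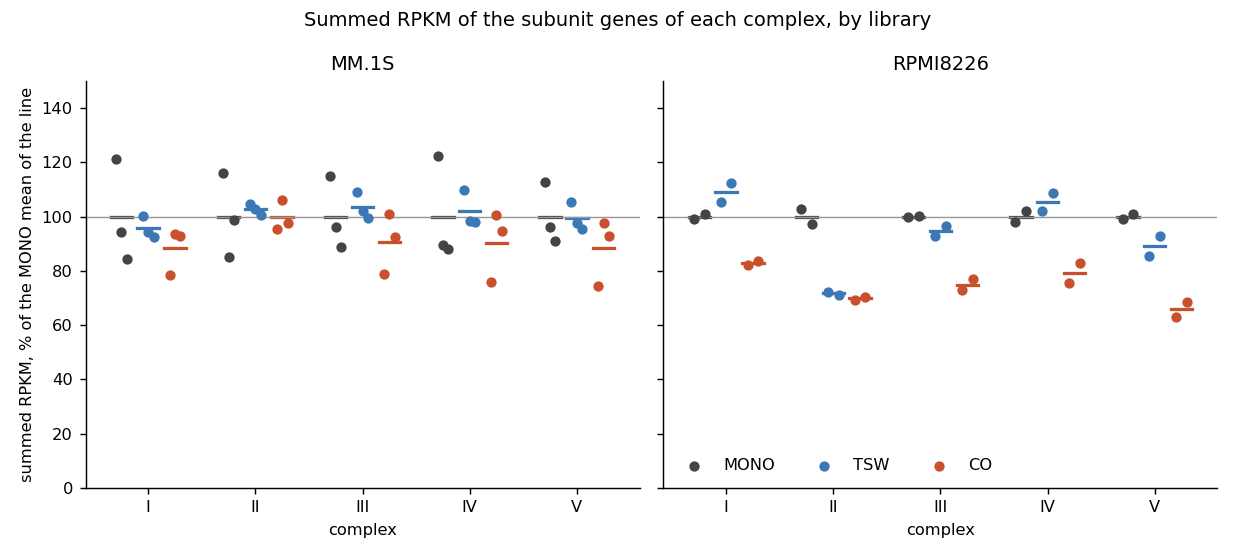
Summed RPKM of the members of each complex in each library, as a percentage of the MONO mean of the same line; points are libraries and bars are group means. In RPMI8226 CO the mean of complex V is at 65.8% and that of complex I at 82.9%, while in MM.1S the libraries of the groups overlap.

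By limma no member was called higher in RPMI8226 CO than in MONO, against 16.4% of all genes. Voom also gave a count of 0. With no expression filter 1 was called higher (COX6B2), with the loess correction for length alone 1 (NDUFV2) and with that for length and GC content 3. Unadjusted p was under 0.05 for 54 members. By adjusted p alone 50 were lower (against 41.7% of all genes) and 4 higher (against 30.3%). Those called lower were 10 of 36 tested in complex I (27.8%), 1 of 4 in complex II (25%), 4 of 9 in complex III (44.4%), 4 of 12 in complex IV (33.3%) and 10 of 16 in complex V (62.5%). Of all genes 22.9% were called lower, close to the shares of complexes I and II. Median log2 fold changes were -0.21, -0.31, -0.41, -0.34 and -0.65 in the same order. The sign of complex I was not stable, since after a loess correction for gene length and GC content its median was 0.05. The other medians stayed negative after it at -0.03, -0.14, -0.07 and -0.24.

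**Figure D2:**
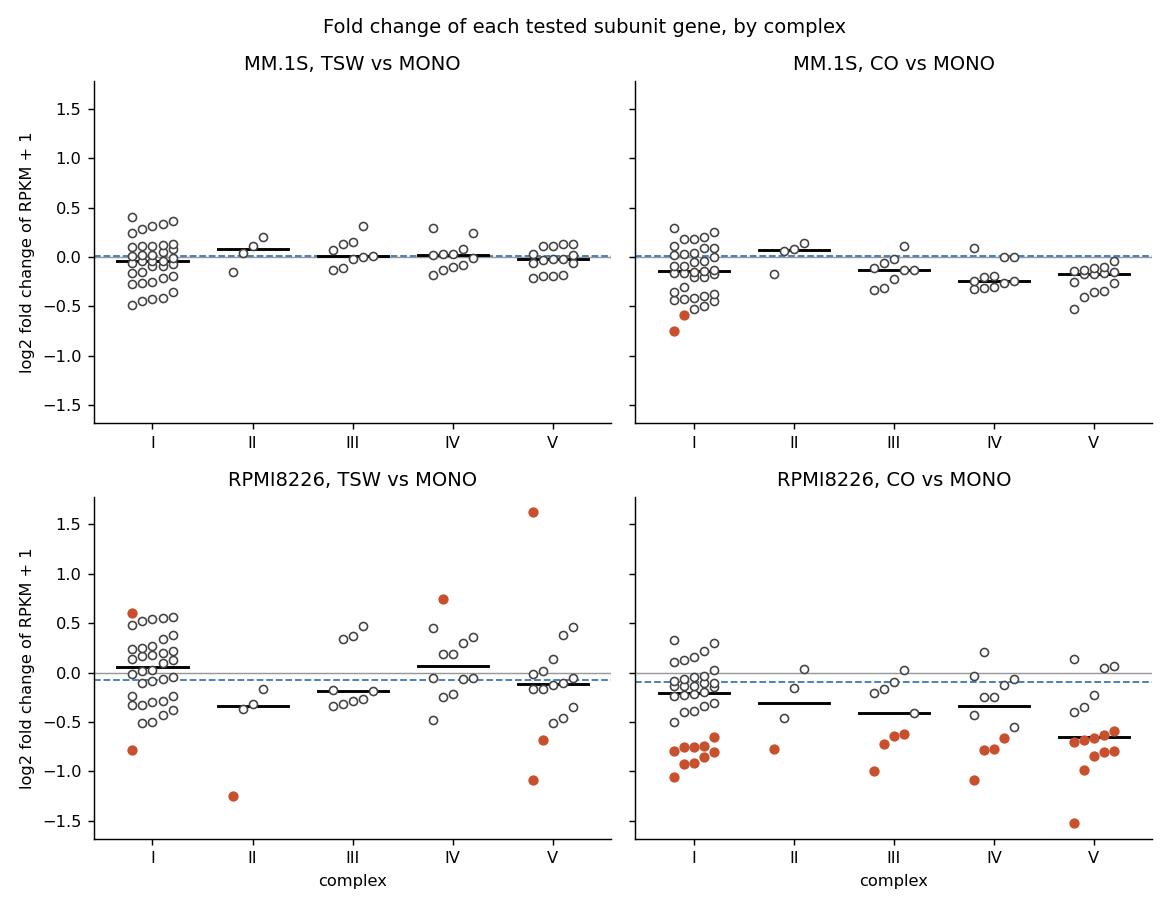
Log2 fold change of each tested member by complex, for TSW vs MONO and CO vs MONO in each line; open points are not called, filled red points are called, black bars are medians of a complex and the dashed line is the median of all genes tested. In RPMI8226 CO vs MONO complex V has a median of -0.65 and 10 of its 16 genes called lower, and the median of complex I turns from -0.21 to 0.05 after the loess correction.

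Complex V changed most, and within it the genes for the c subunit parted ways. The 3 genes ATP5G1, ATP5G2 and ATP5G3 encode the same mature c protein behind different import sequences. ATP5G1 was at an RPKM of 369 and 375 in MONO, 165 and 184 in TSW, and 121 and 136 in CO. ATP5G3 was at 120 and 122 in MONO, 78.03 and 92.4 in TSW, and 57.4 and 64.2 in CO. For both genes every CO library was below every TSW library and every TSW library below every MONO library. In limma ATP5G1 fell by 1.52 log2 units in CO vs MONO (SE 0.079, adjusted p 6.4e-08) and ATP5G3 by 0.98 (SE 0.089, adjusted p 3.6e-06), and after the loess correction they fell by 1.07 and 0.90. ATP5G2 was at 106 and 111 in MONO, 142 and 159 in TSW, and 118 and 121 in CO, with CO just above MONO. Its log2 fold change in CO vs MONO was 0.14 (limma adjusted p 0.11) and became 0.54 after the correction. ATP5G1 was thus the most abundant c-subunit gene of RPMI8226 in MONO, and in CO its level was close to that of ATP5G2.

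Several genes for the catalytic head and stalks of complex V were also lower in RPMI8226 CO. ATP5A1 and ATP5B, which form the alpha and beta subunits of the catalytic ring, were at 536 and 561 and at 772 and 799 in MONO. In CO they were at 298 and 332 and at 484 and 528, below every MONO library. ATP5D, the delta subunit of the central stalk, was at 102 and 111 in MONO, 97.1 and 108 in TSW, and 56.4 and 61.5 in CO, so that only CO was apart. ATP5F1, the b subunit of the peripheral stalk, was at 105 and 104 in MONO, 66.9 and 62.3 in TSW, and 57.5 and 61.7 in CO. In limma the 4 genes fell by 0.80 (adjusted p 4.7e-06), 0.63 (2.8e-05), 0.84 (5.2e-06) and 0.80 (2.8e-06) in both CO libraries. After the loess correction they fell by 0.56, 0.28, 0.39 and 0.59, and of these ATP5F1 alone passed the fold threshold. ATP5E, the epsilon subunit of the central stalk, was at 223 and 214 in MONO and 222 and 234 in CO, which overlapped (0.06, adjusted p 0.56). By part of the enzyme, 3 of 5 head and central stalk genes were called lower, 2 of 3 c-subunit genes, 3 of 4 peripheral stalk genes and 2 of 3 other membrane genes. Of all genes 22.9% were called lower.

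Among complex I genes, 1 of 7 core subunits and 9 of 29 accessory subunits were called lower, against 22.9% of all genes. A difference between core and accessory subunits was not tested. NDUFS6, an accessory subunit that binds zinc near the NADH-oxidizing arm, was at 230 and 255 in MONO, 171 and 187 in TSW, and 119 and 112 in CO. NDUFB9, of the membrane arm, was at 235 in both MONO libraries, 158 and 174 in TSW, and 122 and 124 in CO. NDUFS3, a core subunit of the arm that carries electrons to ubiquinone, was at 64.7 and 67.3 in MONO, 54.2 and 57.5 in TSW, and 32.7 and 39.5 in CO. All 3 were lowest in both CO libraries, and limma put the fall at 1.06 (adjusted p 6.6e-07), 0.93 (7.1e-07) and 0.86 (1.0e-05). After the loess correction they fell by 0.62, 0.57 and 0.43, and NDUFS6 alone of them was called. The core gene NDUFV2, which holds an iron-sulfur cluster, went the other way, at 338 and 344 in MONO, 500 and 496 in TSW, and 429 and 413 in CO. It rose by 0.30 in both CO libraries (limma adjusted p 0.0012) without reaching the fold threshold, as did NDUFC2 (0.33, adjusted p 0.025) and NDUFB8 (0.22, adjusted p 0.017), and in complex IV COX7A2 (0.21, adjusted p 0.038).

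Complexes II, III and IV each had genes among the calls. SDHB, the iron-sulfur subunit of succinate dehydrogenase, was at 168 and 165 in MONO, 133 and 134 in TSW, and 96.8 and 96.4 in CO. CYC1, which is cytochrome c1 of complex III, was at 167 and 182 in MONO, 127 and 149 in TSW, and 84.6 and 88.8 in CO. COX5A, a matrix-side subunit of complex IV, was at 413 and 435 in MONO, 352 and 378 in TSW, and 233 and 259 in CO. In each of them the conditions did not overlap and TSW lay between MONO and CO. Limma gave log2 fold changes in CO vs MONO of -0.78 for SDHB (SE 0.061, adjusted p 1.2e-06), -0.998 for CYC1 (SE 0.084, adjusted p 2.1e-06) and -0.79 for COX5A (SE 0.074, adjusted p 4.9e-06). The corrected values were -0.45, -0.59 and -0.36, and CYC1 alone of them was called. COX6A1, the widely expressed COX6A isoform, went from 241 and 273 in MONO to 134 and 168 in CO, with both CO libraries lower (-0.77, adjusted p 6.5e-05, and -0.37 after correction). COX7B2 was at 9.04 and 10.5 in MONO, 6.67 and 6.79 in TSW, and 3.19 and 5.12 in CO (-1.09, adjusted p 1.0e-04), while COX7B was at 594 and 622 in MONO and 446 and 458 in CO.

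**Figure D3:**
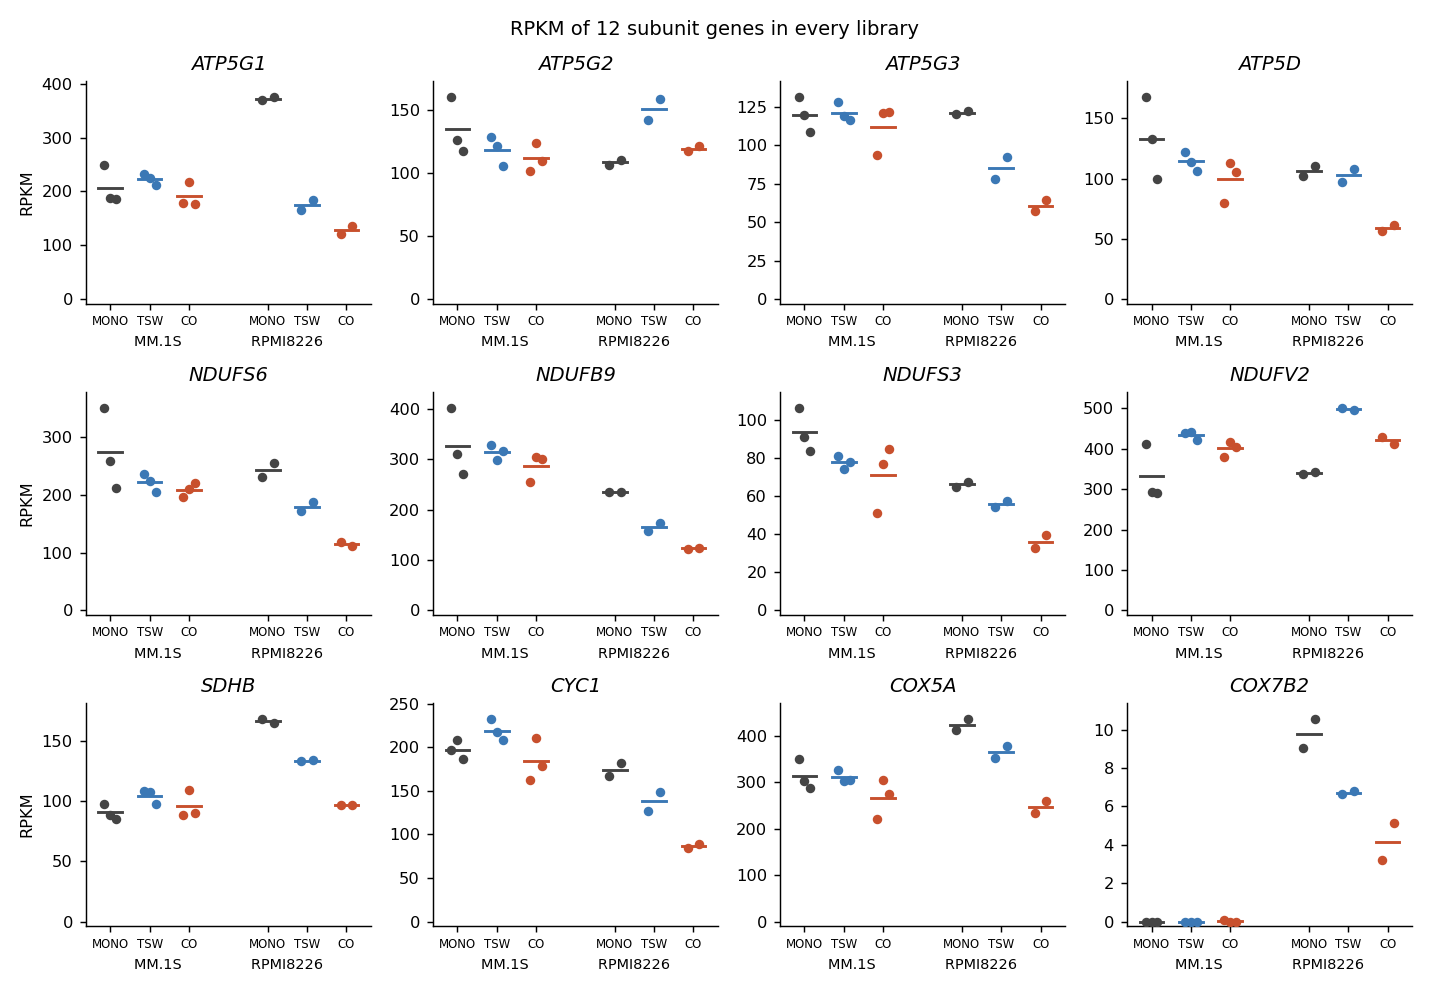
RPKM of 12 members in each library of both lines; points are libraries and bars are group means. In RPMI8226, ATP5G1 goes from 369 and 375 in MONO to 121 and 136 in CO, while ATP5G2 stays between 106 and 159.

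Promoters of 67 members could be taken from RefSeq on GRCh38.p14, as 300 bases with 250 before the transcript start and 50 from it, among 27305 such promoters. Motifs were counted as exact matches on both strands, and none contains another. The core site of nuclear respiratory factor NRF1, GCATGCGC, was in 13 members (19.4%) against 3.27% of all promoters, the YY1 site AAGATGGC in 11 (16.4%) against 3.03%, the ETS site CCGGAAGT in 9 (13.4%) against 4.44% and the E-box CACGTG in 7 (10.4%) against 7.43%. Of 22 members called lower in RPMI8226 CO with a promoter, these motifs were in 8, 6, 1 and 3 in that order. A match is a description, not a site or a cause. The promoters of ATP5G1 (chr17:48892537-48892836, plus strand) and ATP5G2 (chr12:53676034-53676333, minus strand) are given because the genes encode the same protein and their levels parted in RPMI8226. Those of NDUFS6 (chr5:1801157-1801456, plus strand) and SDHB (chr1:17053983-17054282, minus strand) are given as the complex I and complex II genes with the smallest adjusted p there. Each reads 5' to 3' on the gene's strand, from RefSeq, with the motif matches in capitals.
ATP5G1: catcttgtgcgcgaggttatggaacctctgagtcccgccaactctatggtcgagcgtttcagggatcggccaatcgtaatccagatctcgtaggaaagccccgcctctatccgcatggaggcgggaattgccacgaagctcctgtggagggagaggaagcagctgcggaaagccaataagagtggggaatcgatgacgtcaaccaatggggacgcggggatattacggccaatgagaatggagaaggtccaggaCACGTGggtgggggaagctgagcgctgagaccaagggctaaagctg
ATP5G2: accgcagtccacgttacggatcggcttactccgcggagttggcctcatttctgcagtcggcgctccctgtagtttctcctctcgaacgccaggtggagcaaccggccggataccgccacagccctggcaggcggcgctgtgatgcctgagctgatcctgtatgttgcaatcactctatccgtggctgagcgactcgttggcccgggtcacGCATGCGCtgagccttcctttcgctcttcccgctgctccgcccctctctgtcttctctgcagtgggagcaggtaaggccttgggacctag
NDUFS6: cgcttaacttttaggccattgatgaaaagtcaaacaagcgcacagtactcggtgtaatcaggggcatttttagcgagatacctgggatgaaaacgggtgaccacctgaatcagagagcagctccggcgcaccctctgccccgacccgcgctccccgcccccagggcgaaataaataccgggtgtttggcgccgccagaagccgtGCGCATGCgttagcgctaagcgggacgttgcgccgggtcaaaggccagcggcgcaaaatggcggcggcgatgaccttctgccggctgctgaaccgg
SDHB: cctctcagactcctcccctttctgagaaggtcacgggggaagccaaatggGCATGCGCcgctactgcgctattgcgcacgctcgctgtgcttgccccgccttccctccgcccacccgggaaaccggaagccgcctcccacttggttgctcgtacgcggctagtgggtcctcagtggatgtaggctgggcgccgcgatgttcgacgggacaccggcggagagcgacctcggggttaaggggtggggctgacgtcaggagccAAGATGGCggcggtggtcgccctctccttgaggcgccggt

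Transcript length accompanied these differences. The members are short, with a median exon length of 1059 bases against 3618 for all tested genes in RPMI8226. Across all genes the median log2 fold change of CO vs MONO rose from -0.29 in the shortest 2064 genes, which held 62 members, to 0.07 in the longest 2064. A loess correction of each library for length and GC content gave 9 calls, 6 lower and 3 higher, with a median of -0.07. The 6 lower ones, ATP5G1, ATP5G3, ATP5F1, CYC1, NDUFS6 and COX7B2, were all among the 29, and the 3 higher ones were NDUFV2, NDUFB8 and NDUFA7. By adjusted p alone 32 were lower and 24 higher after the correction. Shares of all genes were taken before any correction, so these corrected counts have no such share beside them. Correction for length alone gave 6 calls, 5 of them among the 29, and for GC alone 19 calls, 18 of them among the 29. Median-of-ratios scaling gave 21 calls, all 21 among the 29. What RNA quality, sorting and the trypsin used on CO cells contributed was not tested.

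**Figure D4:**
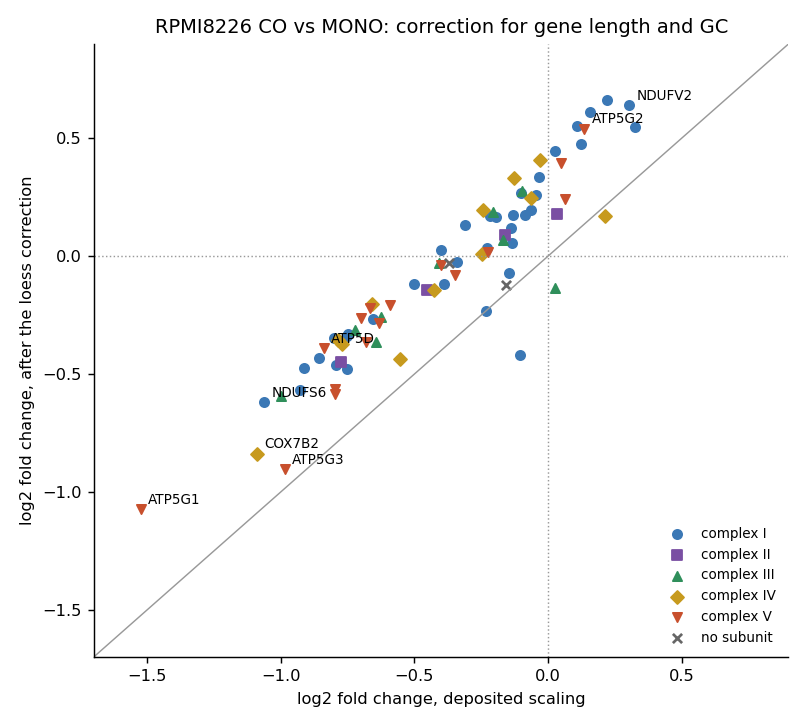
Log2 fold change of each tested member in RPMI8226 CO vs MONO before (horizontal axis) and after (vertical axis) the loess correction for gene length and GC content; points are genes coloured by complex and the diagonal marks equal values. The median of the members moves from -0.34 to -0.07, that of complex I moves from -0.21 to 0.05, and ATP5G1 stays lowest at -1.07.

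Other parts of mitochondrial gene expression were read from separate lists in the same comparison. Of all genes 22.9% were called lower. Of 77 mitochondrial ribosomal protein genes, 58 were called lower (75.3%), with a median of -0.78, and 34 were called after the loess correction, with a median of -0.53. MRPS34 fell from a mean of 121 to 46.7 (-1.36, limma adjusted p 6.5e-08) and MRPL11 from 78.5 to 27.0 (-1.51, adjusted p 4.9e-08). Of 20 regulators of mitochondrial biogenesis and mitochondrial DNA expression, 11 were called lower (55%), among them SLIRP, which stabilizes mitochondrial mRNA, at 83.0 and 80.9 in MONO and 22.4 and 25.1 in CO (-1.75, adjusted p 3.3e-08). Of 53 assembly factors 14 were called lower (26.4%, near the share of all genes) and 2 higher. Of 16 genes for ubiquinone synthesis and electron transfer 6 were called lower (37.5%), including PDSS1, which makes the ubiquinone side chain, at 14 and 14.1 in MONO and 1.44 and 2.40 in CO. Of 7 adenine nucleotide and phosphate carrier genes 3 were called lower (42.9%).

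In RPMI8226 the 13 subunits encoded in mitochondrial DNA went the opposite way to most of the nuclear members. Their summed RPKM in RPMI8226 was 32870 and 32620 in MONO, 46360 and 43800 in TSW, and 54880 and 56600 in CO, 170% of MONO, with no overlap between conditions. In CO vs MONO 8 of 13 were called higher (61.5%, against 16.4% of all genes) and all 13 were higher by adjusted p alone (against 30.3% of all genes), with a median of 0.73. ND6, the only subunit transcribed from the light strand, was at 991 and 901 in MONO, 2557 and 2438 in TSW, and 3288 and 3426 in CO (1.83, limma adjusted p 1.2e-08). What poly(A) selection of the libraries contributed to the levels of ND6 and the other subunits of this list was not tested. The median was 1.14 with 12 calls after the loess correction and 0.19 with 3 calls after quantile normalization. In MM.1S the sum of the 13 was 52230, 51450 and 60480 in MONO, 46340, 61700 and 60350 in TSW, and 86170, 53080 and 63000 in CO. CO replicate 1, the highest of these, also had the lowest sum of the nuclear members in MM.1S (9990). Outside mitochondria, 8 of 83 cytosolic ribosomal protein genes were called lower in RPMI8226 CO vs MONO (9.64%), with a median of -0.21.

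In either direction 39.3% of all genes were called in this comparison. Among genes of fuel supply the shares were 42.1% for glycolysis, 15.4% for the tricarboxylic acid cycle and 36.4% for pyruvate dehydrogenase and its regulation. Of 19 glycolysis genes 6 were called lower and 2 higher, with ALDOC up by 1.46 and LDHB down by 0.91. Of 13 tricarboxylic acid cycle genes 2 were called lower, FH by 1.10 (limma adjusted p 1.5e-07) and IDH3B by 0.93. Of 11 genes for pyruvate dehydrogenase and its regulation 2 were called lower, DLAT and PDHA1, and 2 higher, PDP2 (1.36) and PDK1 (0.63). Of 5 genes tested from a list of paralogs and subunits outside the symbol choice, 2 were called lower, CYCS (-0.63) and NDUFAB1 (-0.89), and 1 higher, NDUFA4L2 (0.91).

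The transwell comparison in RPMI8226 asked what shared medium did without contact, and its libraries are those named above as standing apart. Of 79 members 7 (8.86%, against 32.5% of all genes) were called in TSW vs MONO, 3 higher and 4 lower. By adjusted p alone 24 were higher and 26 lower, while 67.1% of all genes passed in either direction. SDHD, a membrane anchor of complex II, was at 83.1 and 67.7 in MONO, 35.6 and 27.0 in TSW, and 55.4 and 53.4 in CO, lowest in TSW. It fell by 1.25 in both TSW libraries (limma adjusted p 1.1e-05), as did ATP5G1 by 1.09 (9.6e-07), NDUFA5 by 0.78 (3.0e-05) and ATP5F1 by 0.68 (1.2e-05). NDUFA1, the most abundant complex I gene, rose from 479 and 500 to 702 and 787 (0.60, adjusted p 3.8e-05), and COX7A2 rose from 30.6 and 30.0 to 51.7 and 51.4 (0.75, adjusted p 1.9e-05). ATP5L2, a copy of the g-subunit gene, was at 0.1 and 0.254 in MONO, 2.16 and 3.14 in TSW, and 0.23 and 0.2 in CO. It reached the mean RPKM of 1 needed for a test only through its TSW libraries, so its call was tied to that filter. It is 1 of the 3 called higher here and 1 of those called lower in CO vs TSW, and with the filter at 5 the calls were 6 and 17. In MM.1S it was at 4.27 in MONO replicate 2, which also had high RPS14P3 and low trnN, and no more than 0.69 elsewhere. SDHD was at 29.5 in that library against 71.4 and 52.0 in the other MM.1S MONO libraries. NDUFA5 was at 11.75 against 22.3 and 18.2, and ATP5F1 at 39.5 against 49.9 and 49.2. ATP5G1, NDUFA1 and COX7A2 lay between the other MM.1S MONO libraries. What this contributed to the RPMI8226 values was not tested. The median of the members in RPMI8226 was -0.06 (all genes -0.08) and turned positive under median-of-ratios scaling (0.02) and the loess correction (0.04).

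CO vs TSW in RPMI8226 set cells in the stromal chamber against cells sharing its medium. It used the TSW libraries that stood apart. CO cells also had stromal carry-over and may have differed in trypsin treatment, so contact cannot be told apart from these. By limma 18 members (22.8%, against 4.29% of all genes) were called, 15 lower and 3 higher. By adjusted p alone 62 were lower, against 17.5% of all genes, and 3 higher. The median of the members was -0.42. UQCRQ, a small subunit of complex III, was at 88.0 and 93.2 in TSW and 44.7 and 53.2 in CO (-0.88, adjusted p 1.4e-04), COX5B of complex IV at 169 and 183 and at 90.7 and 104 (-0.85, adjusted p 1.4e-04), and ATP5D fell by 0.79 (1.8e-04). CO was lower than TSW in all libraries of these genes. The 3 called higher were SDHD (0.79), NDUFA5 (0.68) and NDUFC2 (0.66). Among MM.1S MONO libraries all 3 were lowest in replicate 2, which also had high RPS14P3 and low trnN (NDUFC2 at 7.91 against 25.4 and 10.1). What this contributed to these RPMI8226 calls was not tested. Without TSW replicate 2 the calls numbered 9, and the loess correction gave 5, 4 of them among the 18, with a median of -0.14.

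In MM.1S few members were called. The summed RPKM of its members was 15350, 12110 and 11350 in MONO, 13540, 12560 and 12340 in TSW, and 9990, 12590 and 12080 in CO, and the conditions overlapped. TSW stood at 99.1% and CO at 89.3% of MONO. In TSW vs MONO limma called 0 of 77 members, against 10.6% of all genes, and voom called 0, with unadjusted p under 0.05 for 9. By adjusted p alone NDUFV2 (0.40), NDUFA7 (0.37) and NDUFV3 (0.28) were higher and NDUFA12 lower (-0.45), while 27.3% of all genes passed. These counts of 3 and 1 became 15 higher and 3 lower after the loess correction for length and GC. With quantile normalization they became 10 and 2. In CO vs TSW, where limma called 0.414% of all genes, the count was 0 by limma and 0 by voom. Unadjusted p was under 0.05 for 3 members there.

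In MM.1S CO vs MONO 2 members (2.6%, against 4.65% of all genes) were called lower. By adjusted p alone 5 members were lower (6.49%, against 15% of all genes) and 0 higher, and unadjusted p was under 0.05 for 16. After the loess correction for length and GC, 12 members were higher and 4 lower by adjusted p alone. NDUFB2, an accessory subunit of the complex I membrane arm, was at 321, 278 and 236 in MONO, 224, 204 and 194 in TSW, and 125, 197 and 180 in CO. NDUFB7, of the same arm, was at 178, 115 and 102 in MONO, 88.7, 95.8 and 89.0 in TSW, and 70.9, 94.6 and 90.4 in CO. Every CO library was below every MONO library for both, and limma gave -0.74 (SE 0.17, adjusted p 0.0081) and -0.59 (SE 0.184, adjusted p 0.034). After the loess correction neither was called, at -0.41 (adjusted p 0.0038) and -0.16 (adjusted p 0.11). NDUFA12 (-0.53), ATP5E (-0.53) and NDUFA6 (-0.45) passed adjusted p alone. Medians of complexes I to V were -0.15, 0.07, -0.13, -0.24 and -0.17, and after the loess correction 0.10, 0.19, 0.12, 0.05 and -0.04, so that the signs of complexes I, III and IV turned, and that of complex III also turned under quantile normalization (0.015). The median of all members was -0.16 against 0.005 for all genes, and 0.06 after the loess correction. Leaving out CO replicate 1 left 0 calls, leaving out MONO replicate 3 gave 7 and leaving out CO replicate 2 gave 5. NDUFB7 was lost and NDUFB2 alone called with no expression filter, with voom and with replicate number as a block. The same held without MONO replicate 1 (median -0.038), without CO replicate 3 and without any single TSW library.

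Fewer genes of the lists were called in MM.1S CO vs MONO, and the difference between lines was not tested for them. Of all genes 11.8% were called there in either direction, against 39.3% in RPMI8226, with 4.65% called lower and 7.13% higher. Near that share, 4 of 77 mitochondrial ribosomal protein genes were called lower (5.19%), and 1 of 53 assembly factors was called lower (1.89%). Of 82 cytosolic ribosomal protein genes 3 were called lower (3.66%) and 1 higher (1.22%). There was 1 higher each for carriers (UCP2), glycolysis (ALDOC) and pyruvate dehydrogenase (PDP2). Limma called 0 genes of mitochondrial biogenesis, ubiquinone and electron transfer, the tricarboxylic acid cycle, the mitochondrial DNA and the paralogs outside the symbol choice. Unadjusted p was under 0.05 for 7, 4, 4, 3 and 0 of them.

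The responses of the lines were compared by a line-by-condition term in 9397 genes tested in both. For CO vs MONO 11 of 77 members (14.3%, against 31.9% of all genes) were called, 10 more negative in RPMI8226 and 1, ATP5E, more positive, and the loess correction gave 7. ATP5G1, at 249, 187 and 185 in MM.1S MONO and 179, 217 and 177 in CO, had a log2 fold change of -0.11 there, and RPMI8226 differed by -1.42 (limma adjusted p 3.2e-05). CYC1 differed by -0.89 (adjusted p 4.2e-04), ATP5G3 by -0.88 (9.5e-04) and SDHB by -0.85 (2.4e-04). The median difference of the members was -0.24 against -0.14 for all genes. For TSW vs MONO 7 of 77 (9.09%, against 26.8% of all genes) were called, led by SDHD (-1.29, adjusted p 0.01) and ATP5G1 (-1.21, adjusted p 1.8e-04). This used the RPMI8226 TSW libraries and MM.1S MONO replicate 2, which all stood apart. In that MM.1S library SDHD was at 29.5, against 71.4 and 52.0 in the other MM.1S MONO libraries. For CO vs TSW limma called 0, with unadjusted p under 0.05 for 8.

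Markers of both cell types were read in every library because the authors noted some HS5 carry-over in CO. The summed RPKM of 31 stromal markers in MM.1S was 24.9, 28.95 and 26.9 in MONO, 25.99, 25.5 and 30.03 in TSW, and 187, 209 and 178 in CO, where MMP1 was the most abundant and S100A6 was so in MONO and TSW. In RPMI8226 it was 4091 and 4420 in MONO, 1869 and 2180 in TSW, and 2246 and 2477 in CO with FN1 as the most abundant (3990 and 4310, 1678 and 1962, and 2007 and 2169). In CO vs MONO 16 of 19 tested stromal markers were called higher in MM.1S and 12 of 14 in RPMI8226. Markers such as COL1A2 reached the mean RPKM needed for a test only through CO, so these shares were in part set by the filter. Of the 31, between 15 and 21 were read in MONO and TSW libraries and between 29 and 31 in CO libraries. COL1A2 and COL3A1 had no read in any MONO or TSW library, and in CO COL1A2 was at 10.8, 13.4 and 10.2 in MM.1S and 4.06 and 5.85 in RPMI8226, with COL3A1 at 8.96, 11.3 and 8.66 and at 2.69 and 2.86. The 10 plasma cell markers were all read in every library, JCHAIN being the most abundant. They summed to 5936, 5008 and 5251 in MM.1S MONO, 4086, 3965 and 3953 in TSW, and 3746, 3907 and 3584 in CO, and in RPMI8226 to 2486 and 2400, 4456 and 4274, and 4540 and 4462. The part of stromal cells in the results above was not tested. Fewer cells of a type and less RNA per cell cannot be told apart in these libraries.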

How the data were processed

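RNA-seq was available for MM.1S (9 libraries) and RPMI8226 (6 libraries) under 3 conditions. The authors aligned paired-end reads to hg38 with Subread, counted them per RefSeq gene with featureCounts and converted them to RPKM. The values the authors deposited are log2(RPKM + 1) plus an offset of 0.0001, per library. The offset was removed, RPKM restored and read counts recovered from the steps of the values.

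Genes whose mean RPKM reached 1 in a line were tested on log2(RPKM + 1) with limma 3.58.1 (R 4.3.3, trend option), and p-values were adjusted over all genes tested by Benjamini-Hochberg. A call needed an adjusted p under 0.05 and a fold over 1.5. The difference between lines was the line-by-condition term over genes tested in both. Tables and figures were made with Python 3.11.15, pandas 2.3.3, numpy 2.4.6 and matplotlib 3.10.9. The fits were checked on simulated data with known changes.

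Members were taken by symbol. NDUFA4 was counted with complex IV, and ATPIF1, the ATP synthase inhibitor, fell outside by its symbol. Members and lists were chosen with earlier results of these data known. The lists covered mitochondrial ribosomal proteins, cytosolic ribosomal proteins, subunits encoded in mitochondrial DNA, assembly factors, ubiquinone and electron transfer, adenine nucleotide and phosphate carriers, biogenesis regulators, the tricarboxylic acid cycle, pyruvate dehydrogenase, glycolysis, paralogs outside the symbol choice, and stromal and plasma cell markers.

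Genes named were up to 15 called members by adjusted p in a comparison, the most abundant member of each complex, the members of each complex with the largest and smallest change, the isoform pairs of complex IV and of the c subunit, and up to 4 genes per list by adjusted p. Any other gene named was picked once its values had been seen. The alternatives were a pseudocount of 0.1, no filter or a filter at a mean RPKM of 5, median-of-ratios and quantile scaling, voom on recovered reads, replicate number as a block, no fold threshold, a loess correction for gene length and GC content, and each library left out in turn. Corrections for length or GC alone, the RPMI8226 fit without TSW libraries and the corrected line difference were chosen after seeing the data. Shares of all genes were taken under the main settings, with and without the fold threshold. Counts under the other alternatives have no such share beside them.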

Additional observations from a re-analysis of the deposited data

Results flagged for a closer look

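The responses of the cell lines differed by the line-by-condition term of limma (adjusted p under 0.05 and a difference over 1.5-fold) for 11 of 77 members in CO vs MONO (14.3%, against 31.9% of all genes). The log2 fold change in RPMI8226 minus that in MM.1S was -1.415 for ATP5G1, -0.891 for CYC1, -0.882 for ATP5G3, -0.853 for SDHB, -0.752 for NDUFB9 and -0.702 for NDUFS6. It was -0.666 for ATP5F1, -0.652 for ATP5A1, -0.619 for NDUFS5, -0.593 for ATP5B and 0.593 for ATP5E.

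In TSW vs MONO the term differed for 7 of 77 members (9.09%, against 26.8% of all genes). The difference was -1.29 for SDHD, -1.206 for ATP5G1, -0.83 for NDUFA5 and -0.813 for ATP5F1, and it was 0.693 for NDUFA1, 0.67 for COX7A2 and 0.643 for ATP5G2. The RPMI8226 TSW libraries and MM.1S MONO replicate 2 were those with high RPS14P3 and low trnN, and what this contributed was not tested.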

How the results depend on the processing

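Of the log2 fold changes of single called genes and the complex medians recomputed under the alternatives, 615 kept their direction and their side of the threshold or moved by less than the spread between replicates, 60 kept their direction and no longer passed, and 17 moved by more than that spread. In CO vs TSW only the 3 called genes of smallest adjusted p were followed, and complex medians were followed in CO vs MONO only. Corrections for length or GC alone were left out here, as were complex medians with a library left out. No called gene followed here changed direction under an alternative, while the medians of some complexes did, as given above. Without the fold threshold the subunits passing numbered 4 in MM.1S TSW vs MONO, 5 in MM.1S CO vs MONO, 50 in RPMI8226 TSW vs MONO, 54 in RPMI8226 CO vs MONO and 65 in RPMI8226 CO vs TSW. Of all genes 27.3%, 31.3%, 67.1%, 71.9% and 27.6% passed in the same order. In MM.1S CO vs MONO calls went from 2 to 1 with no expression filter, 1 with voom, 1 with replicate number as a block, 0 with quantile normalization, 0 with the loess correction for length and GC and 0 for length alone. With GC alone they rose to 3, 1 of them among the 2. The median there was 0.057 with the loess correction.

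In RPMI8226 TSW vs MONO (7 calls, median -0.056) median-of-ratios scaling gave 11 calls and a median of 0.024, GC alone gave 11 and 0.026, length and GC gave a median of 0.042, and length alone 0.035. In RPMI8226 CO vs MONO (29 calls, median -0.341) the median was -0.278 with no filter, -0.233 with median-of-ratios scaling and -0.28 with quantile normalization. Length and GC gave 9 calls and -0.072, length alone 6 and -0.065, and GC alone 19 and -0.209. In RPMI8226 CO vs TSW (18 calls, median -0.424) quantile normalization gave 9 calls and -0.299, length and GC 5 and -0.142, length alone 6 and -0.157, and GC alone 9 calls. The line difference in CO vs MONO went from 11 calls to 7 with length and GC. The cause was not tested.

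Leaving out each library in turn, calls ranged from 0 to 1 in MM.1S TSW vs MONO, 0 to 7 in MM.1S CO vs MONO, 0 to 0 in MM.1S CO vs TSW, 6 to 10 in RPMI8226 TSW vs MONO, 24 to 30 in RPMI8226 CO vs MONO and 9 to 26 in RPMI8226 CO vs TSW. The medians ranged from -0.074 to 0.11, -0.231 to -0.038, -0.197 to -0.06, -0.089 to -0.029, -0.358 to -0.284 and -0.455 to -0.36 in the same order. In RPMI8226 this leaves 1 library in a condition, which is assumed to vary like the other groups. With replicate number as a block the calls in that order were 0, 1, 0, 7, 29 and 18. Correlations between libraries of the same number ran from -0.38 to 0.286 in MM.1S and from 0.164 to 0.271 in RPMI8226, and nothing in the labels pairs them.

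The number of libraries, 2 per condition in RPMI8226, and the depth both limit the precision. Protein, enzyme activity and respiration were not measured.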

Other observations

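Subunit-related genes that the symbol choice missed had values of their own. ATPIF1, the inhibitor of ATP synthase, had a log2 fold change in CO vs MONO of -0.62 in RPMI8226 (limma adjusted p 1.4e-05) and -0.36 in MM.1S (adjusted p 0.035). USMG5 and C14orf2, small membrane subunits of ATP synthase that were on none of the lists, had -0.56 (adjusted p 3.5e-04, not called) and -0.68 (adjusted p 5.9e-06, called) in RPMI8226, and -0.12 (adjusted p 0.63) and -0.32 (adjusted p 0.15) in MM.1S. Of members with a pseudogene named after them 20 of 48 tested (41.7%) were called lower in RPMI8226 CO vs MONO, and 9 of 31 without one (29%), against 22.9% of all genes.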
